A study of Homo sapiens with 3 samples.

Results

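A stretch of human 28S ribosomal RNA that begins right after position 2300 and ends 2182 nt before the last base was followed base by base in an eCLIP study of METTL5. This stretch is labelled as domain III and the beginning of domain IV, up to the start of expansion segment ES27L. Its members were chosen by rRNA and position alone and make up 11.6% of the 5070 positions of 28S, with the other 4482 outside, in a table of 7218 positions of 4 rRNAs. The 28S of the table has the length of the annotated gene RNA28SN5. The table holds no domain borders and no bases, so the domain names are those of the label and no sequence is shown. METTL5-HA eCLIP was represented by 2 libraries from 293T cells, a human embryonic kidney line, with the genotype given as METTL5-HA stable cell lines. They were set against 1 Input library from 293T cells with the genotype WT. Input and eCLIP thus differ in genotype as well as in pulldown, and these cannot be told apart here. Cells of all 3 libraries were crosslinked on the plate with UV light of 254 nm at 400 mJ/cm2, and RNase I trimmed the RNA. Complexes were collected with anti-HA beads, and RNA was recovered from a gel region 75 kDa above the protein. The sources used here do not give the promoter of the tagged gene, the number of clones or the level of the cells' own METTL5. No immunoprecipitate of untagged cells was analysed here, and pulldown background was therefore not assessed.

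METTL5 places N6-methyladenosine on 18S rRNA, the RNA of the small ribosomal subunit, and works as a complex with its partner TRMT112. 28S belongs to the large subunit. Domain III of the large-subunit rRNA lies on the outer side of the ribosome, near the mouth of the tunnel through which the growing protein leaves. It binds ribosomal protein uL23, a landing place for factors that receive the new chain. Domain IV forms much of the face turned to the small subunit, and ES27L is a long, mobile insertion at the tunnel side. In eCLIP, reverse transcriptase often stops next to the base that carries the crosslinked protein. Reads that share an end then give a sharp edge in depth. The sources used here do not say from which end of the RNA fragment the reads began, so edges are given only as positions.

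Each value was the number of reads that covered 1 position. Over the 4 rRNAs, depth summed to 17574237 in eCLIP replicate 1 and 6930845 in eCLIP replicate 2, against 42783485 in Input. Every position of the 3 libraries had fewer than 8000 reads, and the sources used here do not say whether depth was limited when the table was made. This touches the stretch directly. Depth was 7000 reads or more at 140 positions of the stretch in eCLIP replicate 1 and 29 in eCLIP replicate 2, against 0 in Input. The highest depths there were 7465 reads in eCLIP replicate 1 and 7672 in eCLIP replicate 2, against 6930 in Input. Elsewhere the order was the reverse. Input reached 7000 reads or more at 942 positions of the rest of 28S (21.0%) and 1010 of 18S (54.0%). For replicate 1 these counts were 56 and 0, and for replicate 2 both were 0. The highest depth of Input anywhere was 7986 reads. Such positions of Input enter the totals that serve as scales below. The part of such a limit in the results below was not tested.

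The stretch was deeply covered in both eCLIP libraries, and it held more of 28S in eCLIP than in Input. Mean depth was 5632 reads in eCLIP replicate 1 and 3409 in eCLIP replicate 2, against 6524 in Input. Set against the mean of all 28S in the same library, this was 1.71-fold in eCLIP replicate 1 and 2.58-fold in eCLIP replicate 2, against 1.07-fold in Input. Both eCLIP values lay above that of Input, and they differed from each other as well. The stretch held 19.8% of 28S depth in eCLIP replicate 1, with an exact (Clopper-Pearson) 95% binomial interval of 19.6% to 19.9%. It held 29.9% in eCLIP replicate 2 (29.6% to 30.3%) and 12.4% in Input (12.3% to 12.5%). The intervals count 1 read for each 75 of summed depth, the span of a read, and cover counting error only. The log2 ratio of the share to that of Input was 0.68 in replicate 1 and 1.28 in replicate 2. The 2 values averaged 0.98 ± 0.42 (SD, n = 2). With mean 5S depth in place of the 28S total as the scale, the mean was 1.59 ± 0.66 (SD, n = 2). No p-value is given for this ratio, since an exact permutation of 2 libraries against 1 cannot reach 0.05. Windows of the stretch were tested with a model, as given further on.

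On either side of the stretch, eCLIP covered 28S at shares close to those of Input. The same length up to position 2300, just before the stretch, held 9.71% and 10.7% of 28S depth in eCLIP replicates 1 and 2, against 10.7% in Input. The same length just after it held 11.4% and 11.7% in eCLIP, against 11.0% in Input. The log2 ratios to Input were -0.14 and -0.0061 before the stretch and 0.039 and 0.084 after it. In each eCLIP library the value of the stretch exceeded those of both neighbours. Farther off, shares above Input recurred at 1125 to 1712. There replicate 1 averaged 3666 reads against 3302 over 28S, and replicate 2 averaged 1776 against 1320. Input averaged 5254 against 6117. At 537 to 1124 only replicate 1 was above Input, with averages of 3524, 943 and 5958 in the same order. Both eCLIP shares were below Input at 3477 to 4064 (1244, 359 and 5955) and at 4065 to 4652 (2437, 630 and 6468). The difference between the stretches was not tested.

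**Figure D1:**
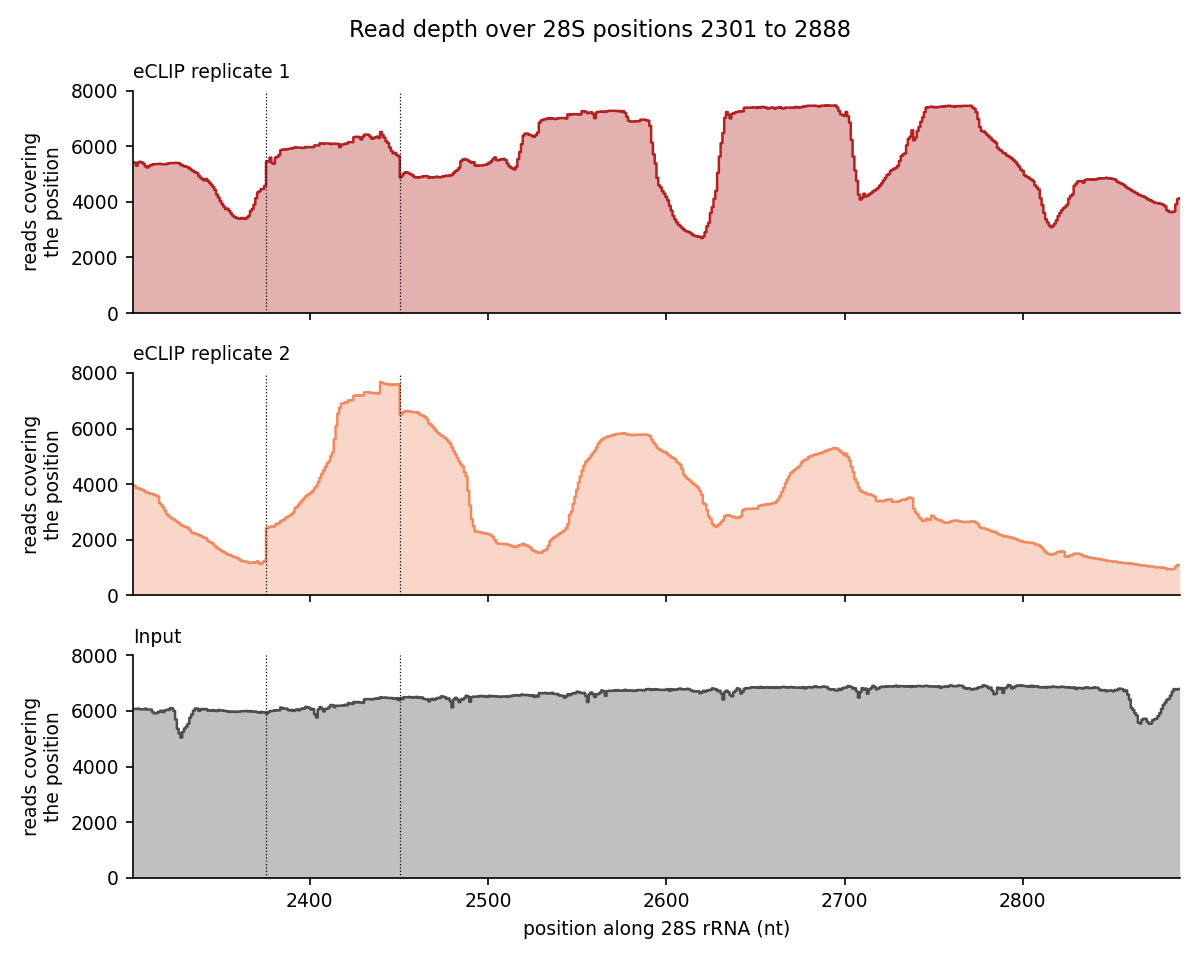
Number of reads covering each position of the 28S stretch in eCLIP replicate 1, eCLIP replicate 2 and Input, on 1 scale. Dotted lines mark the sharp edges at 2376 and 2451. eCLIP replicate 1 has flat crests up to 7465 reads, eCLIP replicate 2 has narrower crests up to 7672 over troughs down to 942, and Input stays between 5039 and 6930.

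The 3 libraries had different shapes over the stretch. Depth lay between 2698 and 7465 reads in eCLIP replicate 1, with a median of 5517. It lay between 942 and 7672 reads in eCLIP replicate 2, with a median of 2956. In Input it lay between 5039 and 6930 reads, with a median of 6649. Input was thus nearly level, and eCLIP replicate 2 spanned the widest range. The deepest position of eCLIP replicate 1 was 2690, where eCLIP replicate 2 had 5204 reads and Input 6866. The deepest position of eCLIP replicate 2 was 2440, where eCLIP replicate 1 had 6510 reads and Input 6491. The shallowest positions were 2620 in eCLIP replicate 1, where eCLIP replicate 2 still had 3620 reads, and 2881 in eCLIP replicate 2, where eCLIP replicate 1 had 3696. Neither the crests nor the troughs of the 2 eCLIP libraries coincided at their extremes.

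eCLIP replicate 1 had 3 long plateaus of 7000 reads or more, and short runs at 2534, 2536, 2540 to 2543 and 2633 to 2635. The longest, 2637 to 2702, kept between 7075 and 7465 reads over 66 positions. Another, 2545 to 2578, kept between 7003 and 7270, and the third, 2744 to 2774, between 7036 and 7452. eCLIP replicate 2 held 1 such run, 2422 to 2450, with 7010 to 7672 reads. The runs of the 2 libraries did not overlap, with 23.8% of positions of the stretch in such runs in replicate 1 and 4.93% in replicate 2. Replicate 1 kept between 5369 and 6510 reads over 2376 to 2450. The mark of 7000 is a raw depth in libraries of unequal total, and the lack of overlap was not tested.

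In the 12 windows of 50 nt between positions 2300 and 2900, the order of depth also differed between the eCLIP libraries. The deepest window of eCLIP replicate 1 was 2651 to 2700, with mean depths of 7390 reads in eCLIP replicate 1 and 4420 in eCLIP replicate 2, against 6833 in Input. The deepest window of eCLIP replicate 2 was 2401 to 2450, with 6454 reads in eCLIP replicate 2 and 6135 in eCLIP replicate 1, against 6273 in Input. Window 2501 to 2550 had 6322 reads in eCLIP replicate 1 and 2035 in eCLIP replicate 2, against 6567 in Input. It was thus among the deeper windows of one eCLIP library and among the shallower windows of the other. Both eCLIP libraries thinned out towards ES27L. The window that starts at 2801 had 4340 and 1516 reads in eCLIP replicates 1 and 2, against 6831 in Input. The window that ends at 2900 had 4032 and 1070 reads in eCLIP, against 6355 in Input.

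The share of 28S depth in each window was set against Input. In eCLIP replicate 1 all 12 windows had log2 ratios above 0, between 0.23 and 1.0. In eCLIP replicate 2 the ratio was above 0 in 11 windows, with the highest value of 2.25 at 2401 to 2450, and was -0.36 in the window that ends at 2900. The plot of window ratios shows that replicate 2 spread over a wider range. Its ratio exceeded that of replicate 1 most at 2401 to 2450, where replicate 1 had 0.86, and at 2451 to 2500, where the values were 1.87 in replicate 2 and 0.55 in replicate 1. At 2551 to 2600 replicate 2 had 1.92 and replicate 1 had 0.89. The share of these 3 windows was at least 2-fold higher in replicate 2 than in replicate 1, out of 12 windows in the stretch. Over all 28S, 3.92% of windows were at least 2-fold higher in replicate 2. In the other direction, 0 of the 12 windows were at least 2-fold lower in replicate 2, where 10.8% of 28S windows were. With 1 library on each side, these folds carry no test.

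**Figure D2:**
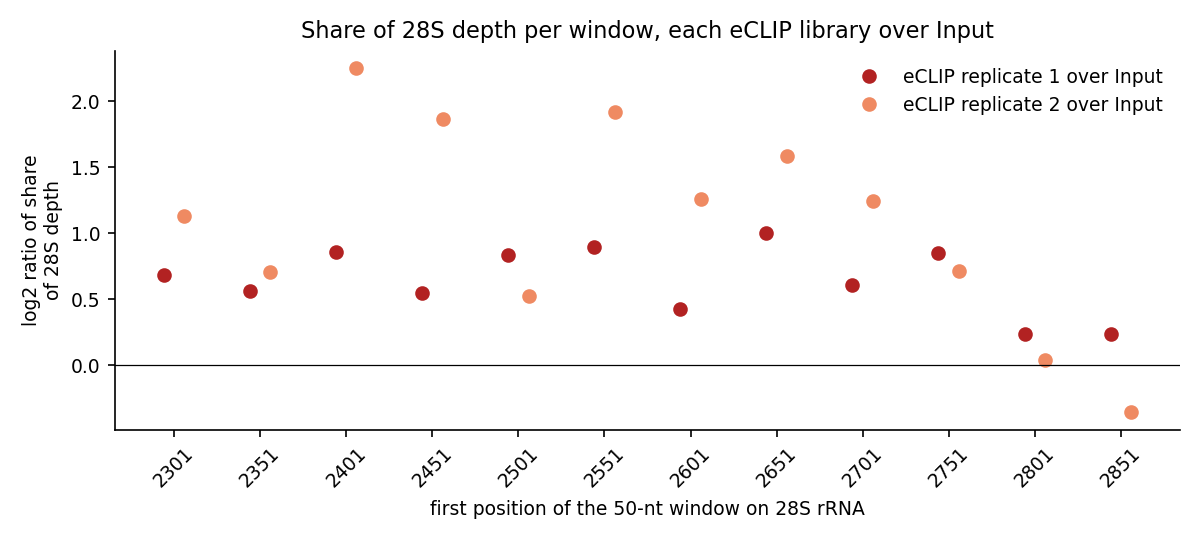
Log2 ratio of the share of 28S depth in each eCLIP library to that in Input, for the 12 windows of 50 nt, with 1 point per library. Values of replicate 1 lie between 0.23 and 1.0, and those of replicate 2 between -0.36 and 2.25.

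eCLIP was tested against Input in 147 windows of 50 nt over all 4 rRNAs. None of the 12 windows of the stretch passed an adjusted p of 0.05 in edgeR's quasi-likelihood test with TMM scaling, and 0 of them had an unadjusted p under 0.05. Over all windows, edgeR called 3.4% higher and 34.7% lower. The lowest adjusted p in the stretch was 0.121, at 2351 to 2400, with an edgeR log2 fold change of 1.51. The window with the largest edgeR log2 fold change of all 28S windows, 2.67 at 2401 to 2450, had an adjusted p of 0.405. The median edgeR log2 fold change of the 12 windows was 1.82, against 0.60 over 28S windows and -0.16 over all windows. These medians moved with the scaling. With library totals in place of TMM they were 1.32 in the stretch, 0.18 over 28S windows and -0.58 over all windows. With the 28S total they were 0.91, -0.22 and -0.98 over the same sets. The median of the stretch lay above that of 28S windows by 1.22 with TMM, 1.14 with library totals and 1.13 with the 28S total. DESeq2's test called 9 of the 12 windows higher and 0 lower, where it called 35.4% of all windows higher and 38.1% lower. The 3 windows that DESeq2 did not call were 2401 to 2450, 2451 to 2500 and 2551 to 2600, with adjusted p-values of 0.11, 0.0516 and 0.0701. These are the same 3 windows in which the eCLIP libraries were at least 2-fold apart. With windows of 100 nt edgeR called 2 of 6 higher, and with windows shifted by 25 nt 1 of 11. The fit has 1 residual degree of freedom. The labels do not tie the eCLIP libraries to separate cultures, so the p-values reflect the spread of these samples alone, which may be technical.

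At single positions the eCLIP libraries differed in how many reached 2-fold of Input's share, a mark that lay at different depths in each. Mean 28S depth was 3302 reads in replicate 1 and 1320 in replicate 2, against 6117 in Input. Runs past the mark had mean depths of 7011 reads or more in replicate 1, close to the highest recorded. In replicate 2 they had 2861 reads or more. The part of this in the difference was not tested. The share of 28S depth was at least 2-fold that of Input at 72 positions of the stretch (12.2%) in eCLIP replicate 1, where 4.2% of all 28S positions were. In eCLIP replicate 2 it was at least 2-fold that of Input at 319 positions (54.3%), where 14.8% of all 28S positions were. No position of the stretch was at least 2-fold lower than Input in either eCLIP library, where 26.5% of 28S positions were in replicate 1 and 39.8% in replicate 2. The positions of replicate 2 formed 4 long runs, from the first base of the stretch to 2332 and at 2383 to 2490, 2546 to 2623 and 2643 to 2740, and a run of 3 nt at 2635 to 2637. Those of replicate 1 were scattered between 2543 and 2773, and the longest run was 25 nt at 2672 to 2696. The highest log2 ratio to Input was 1.07 at position 2556 in replicate 1 and 2.46 at position 2450 in replicate 2.

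The sharpest edge of the stretch was at position 2376 in both eCLIP libraries. A single-base step, the depth at a base minus that at the base before it, was taken at every position. At 2375 and 2376 depth was 4575 and 5447 reads in eCLIP replicate 1, 1245 and 2430 reads in eCLIP replicate 2, and 5946 and 5903 reads in Input. Depth thus stepped up by 872 reads in eCLIP replicate 1 and 1185 reads in eCLIP replicate 2, and dropped by 43 reads in Input. The step was 95.2% of the depth before it in replicate 2 and 19.1% in replicate 1. The step was the largest upward step of the stretch in each eCLIP library. It ranked 2 of all 28S positions in replicate 1 and 1 in replicate 2.

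The matching edge lay 75 nt later. At 2450 and 2451 depth was 5637 and 4876 reads in eCLIP replicate 1, 7591 and 6493 reads in eCLIP replicate 2, and 6389 and 6455 reads in Input. The drops of 761 and 1098 reads were the largest downward steps of the stretch in both eCLIP libraries. Over the stretch, upward steps matched downward steps best at a distance of 75 nt in each library, with correlations across positions of 0.799 in eCLIP replicate 1 and 0.868 in eCLIP replicate 2, against 0.615 in Input. These are descriptions over positions that share reads. The 75-nt block from 2376 to 2450 therefore has the span of 1 read, and its upper edge equals 1.98% and 4.43% of the reads of the stretch in eCLIP replicates 1 and 2. With the step taken out, mean depth over 2376 to 2450 would be 5150 reads in replicate 1 in place of 6022, and 4094 reads in replicate 2 in place of 5279. The share of 28S depth in the stretch would then be 19.5% and 29.0% in replicates 1 and 2. Both values remain above the 12.4% of Input.

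**Figure D3:**
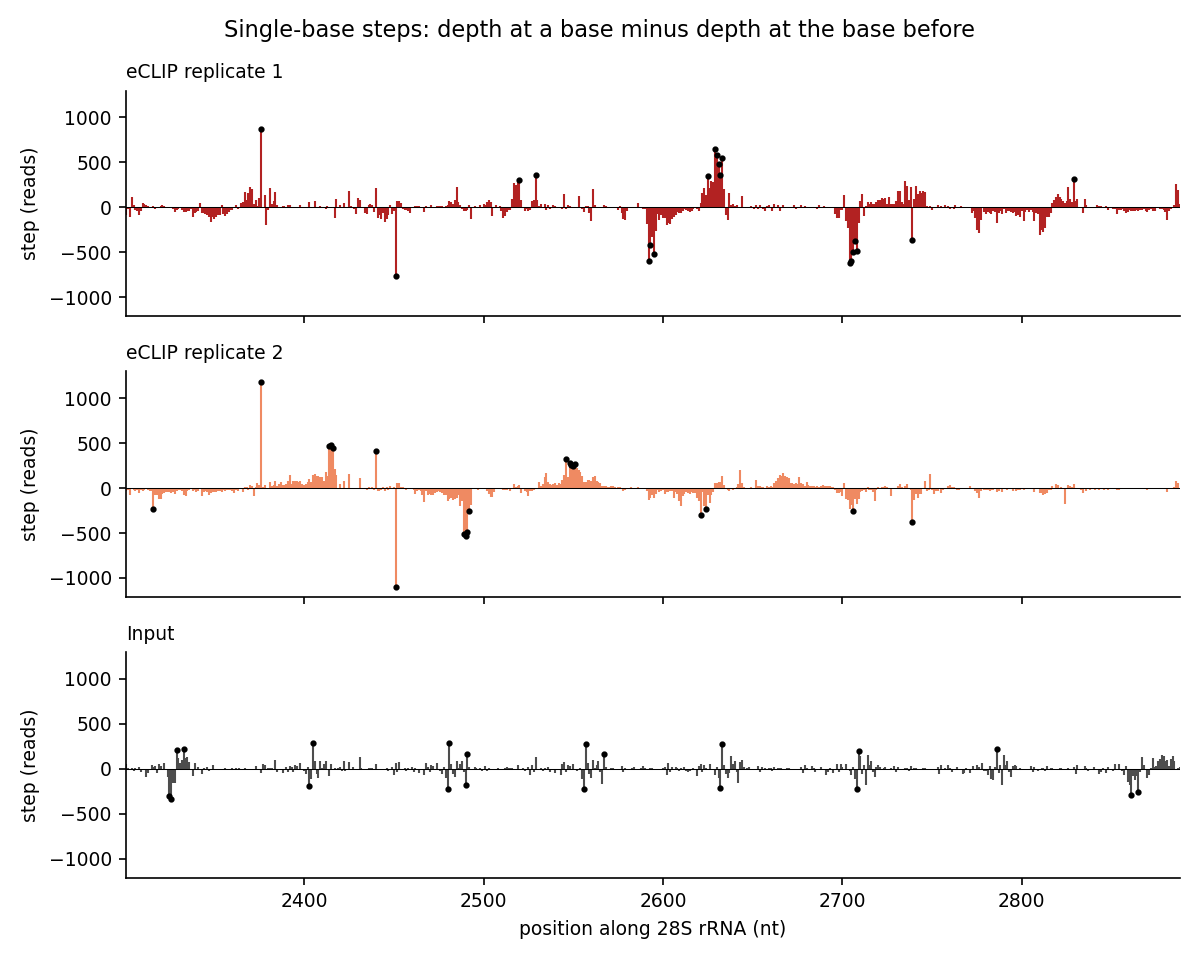
Single-base steps (reads) at each position of the stretch in eCLIP replicate 1, eCLIP replicate 2 and Input, on 1 scale. Black points mark the 10 largest upward and 10 largest downward steps of each library. Steps at 2376 (872 and 1185 reads) and 2451 (drops of 761 and 1098 reads) stand at the same bases in both eCLIP libraries, while the steps at 2629 to 2633 and at 2414 to 2416 are large in 1 eCLIP library each.

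Apart from 2376, the largest upward steps of the 2 eCLIP libraries lay at different bases. Of the 10 largest of each library, 1 was shared, which is 10% of each list, and no other lay within 2 nt of one of the other list. At the 10 bases of replicate 1, steps summed to 4824 reads in replicate 1 itself, 1554 in replicate 2 and 9 in Input. At the 10 bases of replicate 2, steps summed to 4367 reads in replicate 2 itself, 1057 in replicate 1 and 19 in Input. Replicate 1 stepped up at 5 of these 10, where 46.6% of its positions in the stretch did. Replicate 2 stepped up at 8 of the 10 bases of replicate 1, where 39.97% of positions of replicate 2 in the stretch did. The step at 2376 made up the larger part of what either library showed at the bases of the other.

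eCLIP replicate 1 had its steepest rise at 2629 to 2633, where 5 of its 10 largest upward steps were adjacent. Depth at 2628 and 2633 was 4392 and 7021 reads in eCLIP replicate 1, 2459 and 2844 reads in eCLIP replicate 2, and 6772 and 6683 reads in Input. The net gain over these 5 bases was 2629 reads in replicate 1, equal to 5.95% of its reads in the stretch, and 385 reads in replicate 2, equal to 1.44%. The largest of the steps, 648 reads at 2629 in replicate 1, ranked 2 among upward steps of the stretch in that library. The step of 52 reads there in replicate 2 ranked 87 among those of the stretch in replicate 2. One read span later, at 2704 to 2708, replicate 1 lost 2584 reads. Replicate 2 lost 965 reads over those bases, more than it had gained at 2629 to 2633, and Input lost 399.

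eCLIP replicate 2 had its own steep rises at 2414 to 2416 and at 2546 to 2551. At 2413 and 2416 depth was 6084 and 6082 reads in eCLIP replicate 1, 5139 and 6533 reads in eCLIP replicate 2, and 6204 and 6182 reads in Input. The gain of 1394 reads in replicate 2, 5.22% of its reads in the stretch, had no counterpart in replicate 1, whose net change was -2 reads. It was followed by a loss of 1537 reads at 2489 to 2491 in replicate 2 and of 118 reads in replicate 1. At 2545 and 2551 depth was 7143 and 7138 reads in eCLIP replicate 1, 2568 and 4063 reads in eCLIP replicate 2, and 6599 and 6676 reads in Input. Replicate 2 gained 1495 reads there, 5.59% of its reads in the stretch, at bases where replicate 1 stood on its plateau above 7000 reads. One read span later, at 2621 to 2626, replicate 2 lost 1037 reads while replicate 1 gained 1112.

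A further step of replicate 2 was not matched 75 nt later. At 2440 depth stepped up by 416 reads in replicate 2, by 215 in replicate 1 and by 50 in Input, and 75 nt later, at 2515, replicate 2 dropped by 35 reads. This step brought replicate 2 to the deepest point of the stretch, 7672 reads. It ranked 5 among upward steps of the stretch in replicate 2 and 25 in replicate 1.

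Of the 10 largest downward steps of each eCLIP library, 3 were shared, at 2451, 2706 and 2739, which is 30% of each list. Counted within 2 nt, 7 of the 10 of replicate 1 lay beside one of replicate 2, while 3 of the 10 of replicate 2 lay beside one of replicate 1, and 5 of those 7 were the adjacent bases 2704 to 2708. At the 10 bases of replicate 1, downward steps summed to 5247 reads in replicate 1, 2779 in replicate 2 and 363 in Input, and replicate 2 stepped down at all 10, where 58.8% of its positions in the stretch did. At the 10 bases of replicate 2, downward steps summed to 4283 reads in replicate 2 and 1512 in replicate 1, while Input summed to -135, a net rise. Replicate 1 stepped down at 6 of these 10, where 51.7% of its positions in the stretch did. Across the positions of the stretch, the correlation between the eCLIP libraries was 0.342 for upward and 0.487 for downward steps. Whether upward and downward steps differ in this was not tested.

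The drop at 2739 was alike in size in both eCLIP libraries. At 2738 and 2739 depth was 6569 and 6209 reads in eCLIP replicate 1, 3492 and 3118 reads in eCLIP replicate 2, and 6891 and 6873 reads in Input. The drops were thus 360 and 374 reads in eCLIP and 18 in Input. One read span earlier, at 2664, depth had stepped up by only 21 reads in replicate 1, 113 in replicate 2 and 5 in Input. Steps are net of the reads that begin and end at a base. At 2664 replicate 1 lay on its plateau above 7000 reads, while replicate 2 had 3576 reads. The cause of the small upward steps at 2664 was not tested.

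How sharply reads concentrated was described by the share of summed upward steps held by the 10 largest. This share was 24.1% in eCLIP replicate 1, with an exact 95% binomial interval of 23.5% to 24.7%, and 28.4% (27.7% to 29.2%) in eCLIP replicate 2. In Input it was 19.7% (18.9% to 20.4%). The intervals treat each unit of summed upward steps as 1 independent read. Steps are net of reads that begin and end at a base, and the 10 bases were picked as the largest. Upward steps summed to 45.4% and 57.5% of the reads of the stretch in replicates 1 and 2, and 22.9% in Input. The intervals are therefore not the full counting error of these shares. The number of bases that held 50% of summed upward steps was 33 in replicate 1, 31 in replicate 2 and 42 in Input. The inverse Simpson number, the count of equal steps that would be as concentrated, was 84.3 in replicate 1, 64.1 in replicate 2 and 114.2 in Input. On these 3 measures replicate 2 was the most concentrated and Input the least, but the place of Input depended on the setting. With only steps of at least 1% of mean depth counted, the share of the 10 largest was 28.3% in replicate 1 and 31.8% in replicate 2, against 34.7% in Input. With read starts rebuilt over 1 read span it was 9.25% in replicate 1 and 14.2% in replicate 2, against 18.5% in Input. Input was thus the most concentrated library under both of these settings. The largest step alone, at 2376, held 4.35% of upward steps in replicate 1 and 7.71% in replicate 2. Without it the shares of the 10 largest were 22.1% and 24.0%, an alternative chosen after seeing the data. The order turned when only bases with depth under 4000 before the step were counted, with 62.0% in replicate 1 and 38.8% in replicate 2. In replicate 1 87.8% of positions of the stretch were at 4000 reads or more, against 32.3% in replicate 2, so few bases of replicate 1 entered that count.

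Depth itself was more uneven in replicate 2 by a wider margin. The coefficient of variation of depth over the stretch was 0.231 in eCLIP replicate 1 and 0.525 in eCLIP replicate 2, against 0.0557 in Input. The deepest 10% of positions held 13.2% of the depth of the stretch in replicate 1, 20.3% in replicate 2 and 10.6% in Input. The highest depth was 1.35 times the median in replicate 1, 2.60 times in replicate 2 and 1.04 times in Input. The plots of ranked steps and ranked depth show that the eCLIP libraries lay closer together in steps than in depth. Depth of 7000 reads or more, close to the highest recorded, was reached at 23.8% of positions in replicate 1 and 4.93% in replicate 2. The part of this in the difference was not tested.

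**Figure D4:**
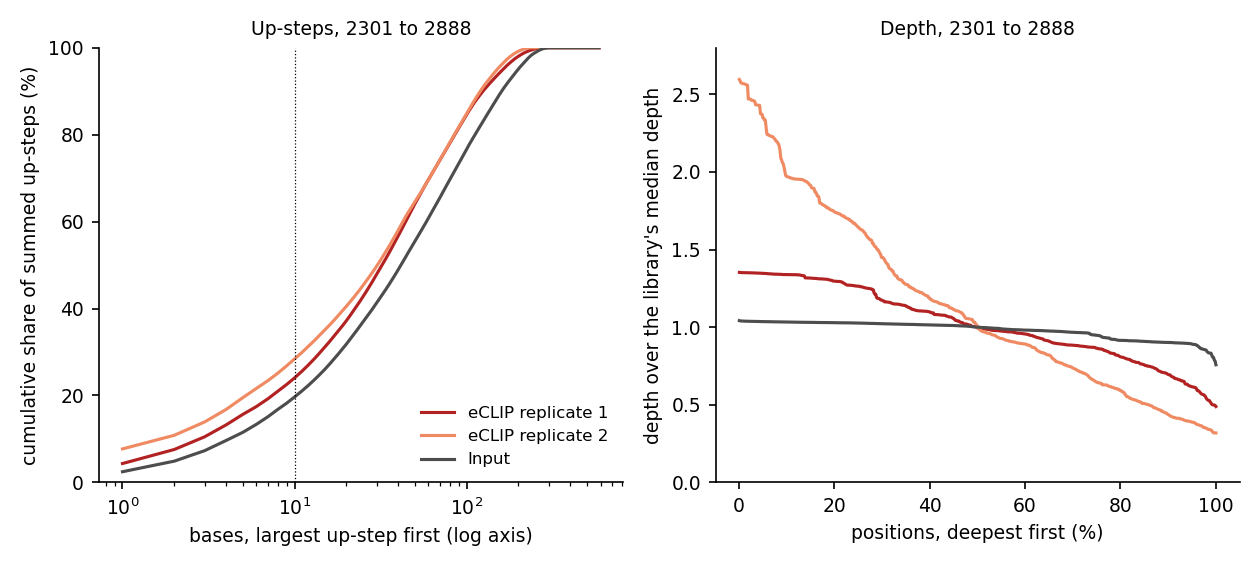
Left, cumulative share (%) of summed upward steps against the number of bases, largest first, on a log axis, with a dotted line at 10 bases, where the shares are 24.1% and 28.4% in eCLIP replicates 1 and 2 and 19.7% in Input. Right, depth divided by the median of the same library, positions ordered from deepest to shallowest, with top values of 1.35 and 2.60 in eCLIP replicates 1 and 2, and 1.04 in Input.

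Replicate 2 was also the more uneven eCLIP library beside the stretch. Over the same length before it, the coefficient of variation of depth was 0.566 in replicate 1, 0.896 in replicate 2 and 0.0586 in Input. Over the same length after it, it was 0.590 in replicate 1, 0.851 in replicate 2 and 0.195 in Input. Both eCLIP libraries were thus more even over the stretch than beside it, where replicate 2 had a mean depth of 1214 reads before and 1333 after. Of 7 adjacent stretches of this length along 28S, the coefficient of replicate 2 over that of replicate 1 was 2.27 in the one described and lay between 1.02 and 1.58 in the other 6. In the one described, 23.8% of positions of replicate 1 were at 7000 reads or more. This was 6.12% in the stretch just after it and 0% in the rest of the 7. The part of such high depth in this ratio was not tested. The 10 largest upward steps held 20.6% and 17.9% in replicates 1 and 2 before the stretch, and 26.5% and 31.5% after it. In Input they held 38.8% before and 28.4% after it, so Input was not the least concentrated library on either side. The value of replicate 2 thus lay above that of replicate 1 in the stretch and after it, and below it before.

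The likeness of the 2 eCLIP profiles was described by correlation. Log2(depth + 1) correlated between replicates 1 and 2 at 0.410 by Pearson's r and also 0.410 by Spearman's rho over the positions of the stretch. In the other 6 adjacent stretches of this length, r lay between 0.828 and 0.977. Single-base steps correlated with r = 0.430 in the stretch, and with 0.673 before and 0.872 after it. These are descriptions over positions that share reads, with no test. In 3 equal parts of 196 nt, r was 0.701 up to 2496, 0.038 at 2497 to 2692 and 0.639 from 2693 on. The middle part, with the lowest value, was also the part in which 50.5% of positions of replicate 1 were at 7000 reads or more, against 0% in the first and 20.9% in the last. With those positions left out of the whole stretch, r was 0.362 and rho 0.425 over 448 positions. Leaving them out also narrows the range of replicate 1, and the part of high depth in the low r was not tested.

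**Figure D5:**
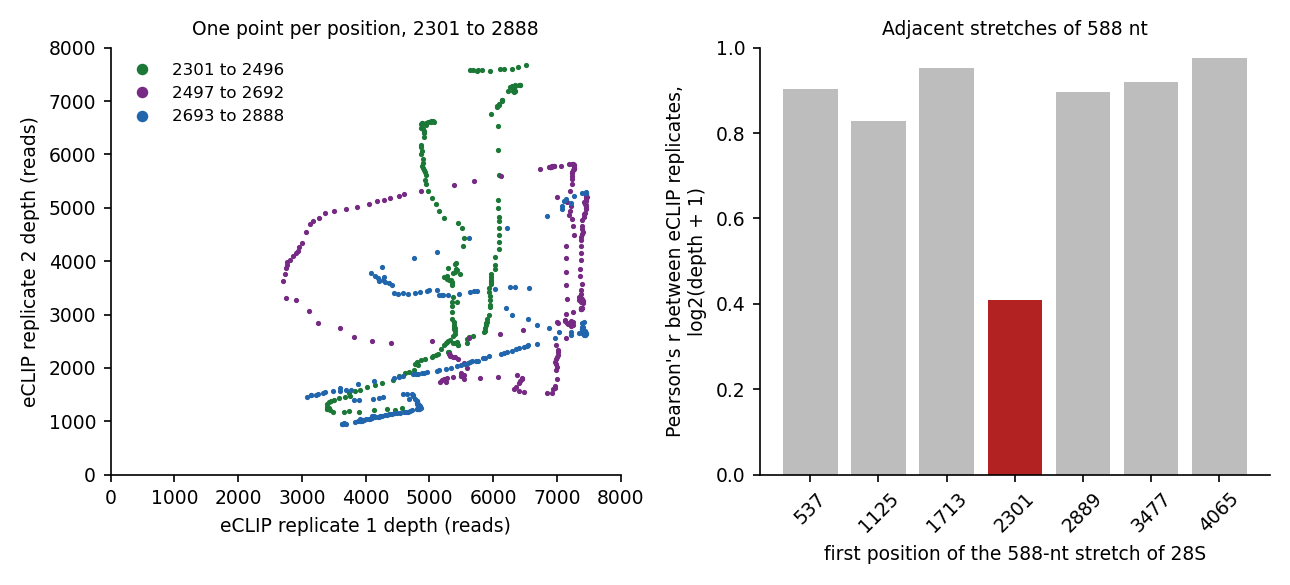
Left, depth in eCLIP replicate 2 against depth in eCLIP replicate 1 (reads), 1 point per position of the stretch, coloured by 3 parts of 196 nt, with vertical tracks where replicate 1 was level and replicate 2 changed. Right, Pearson's r of log2(depth + 1) between the replicates in 7 adjacent stretches of equal length, 0.410 for the one described (red) and 0.828 to 0.977 for the others (grey).

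The relative depth of the 2 eCLIP libraries swung along the stretch. The log2 ratio of the share of 28S depth in replicate 2 to that in replicate 1 was highest at position 2608, with 1.91, where replicate 2 had 4691 reads and replicate 1 had 3123. It was lowest at position 2530, with -0.86, where replicate 2 had 1530 reads and replicate 1 had 6923. It was above 0 at 387 positions and below 0 at 201. Input depths at 2608 and 2530 were 6801 and 6632 reads. Input does not enter this ratio and was nearly level over the stretch, so its depths say nothing about the swings.

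Input steps were small, and several of the largest were evenly spaced. The 4 largest upward steps of Input were 289 reads at 2405, 286 at 2481, 282 at 2557 and 276 at 2633, each 76 nt after the one before. The series also took in 2329, with 205 reads, and 2709, with 200. At the base before each of these, Input stepped down, by 156 reads at 2328, 117 at 2404, 220 at 2480, 219 at 2556, 212 at 2632 and 221 at 2708. The series began at the shallowest position of Input in the stretch, 2328, with 5039 reads. Upward steps of Input correlated with themselves best at a distance of 76 nt, among distances of 20 to 200 nt, with 0.704 across positions of the stretch, whereas the value at 76 nt over all of 28S was 0.103. In eCLIP it was -0.0063 in replicate 1 and -0.103 in replicate 2 over the stretch. Of the 10 largest upward steps of Input, those at 2333, 2491, 2567 and 2786 lay outside the series, though 2491 and 2567 are also 76 nt apart. The spacing lies next to the read span of 75 nt. Its cause, and the part of a limit on depth in it, were not tested. Position 2633 was among the 10 largest upward steps of both replicate 1 and Input, and the step of replicate 1 there, 551 reads, is thus the only one of its 10 at a base of this Input series.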

How the data were processed

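The 3 libraries were analysed as 2 groups, METTL5-HA eCLIP (2 libraries) and Input (1 library), and columns named for immunoprecipitates 1 and 2 were taken as eCLIP samples 1 and 2. The deposited counts are, per the file headers, a value for each rRNA position in each library, without scaling. STAR and hg19 are named, with no version or role, per the submitters' processing notes, and the sources used here do not say how the table was made. Counts were treated as read depth. The stretch is 28S positions 2301 to 2888 (588 positions, counted from 1 along the rRNA), and its neighbours are 1713 to 2300 and 2889 to 3476. Upward and downward steps matched best at 75 nt, taken as the span of a read. Depth summed in windows of 50 nt over all 4 rRNAs was tested with edgeR 4.0.16 in R 4.3.3 (quasi-likelihood, TMM, filterByExpr, Benjamini-Hochberg adjusted p under 0.05), with DESeq2 1.42.0 as an alternative. The scripts were tested on simulated data. A window belonged to the stretch if over 50% of it lay there. Positions were named by rule: the 10 largest steps each way per library, the deepest and shallowest position and the 12 windows. Other positions, the 7 adjacent stretches and the 3 parts were chosen after their values were seen. The positions and tests were chosen with earlier results of these data known.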

Additional observations from a re-analysis of the deposited data

How the results depend on the processing

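The mean log2 ratio of the share of 28S depth, 0.98, was 1.59 when scaled to 5S and lay between 0.79 and 1.38 under the other scalings and edges run. With 1 eCLIP replicate left out it was the value of the other, 0.68 or 1.28. The number of windows called higher, 0 of 12 with edgeR, was 9 with DESeq2's test, 2 of 6 with windows of 100 nt and 1 of 11 with shifted windows, and 0 under the other settings. No window was called lower under any setting run. Of 72 results for single windows, 62 kept their direction and call, 9 passed with DESeq2's test, and 1 reversed, the window that ends at 2900, with the 28S total (edgeR log2 fold change -0.033, adjusted p = 0.972).

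The mean share of upward steps in the 10 largest bases over both eCLIP replicates, 26.2%, was 30.1% with steps of at least 1% of mean depth, 55.2% with rises over 3 nt, 50.4% below 4000 reads, 11.7% with rebuilt read starts, 17.6% for the top 5 and 38.9% for the top 20 bases. It was 24.1% or 28.4% with 1 replicate left out. Among alternatives chosen after seeing the data, it was 35.9% with matched steps and 23.1% without the largest step. The difference of replicate 2 minus replicate 1, 4.38 percentage points, was 12.1 with rises over 3 nt, 3.32 for the top 20 bases, 1.26 with matched steps and 1.84 without the largest step. It reversed to -23.1 below 4000 reads. The cause was not tested. The mean share of depth in the deepest 10% of positions, 16.8%, was 8.87% for the deepest 5% and 31.4% for the deepest 20%, and 13.2% or 20.3% with 1 replicate left out. The difference, 7.07 points, was 4.24 and 10.4 for the deepest 5% and 20%. The number of windows at least 2-fold higher in replicate 2, 3 of 12, was 5 of 24 with windows of 25 nt and 1 of 6 with windows of 100 nt. No paired analysis was possible because only 1 Input library stands against both eCLIP libraries, which leaves fewer than 2 pairs. Leaving out a replicate leaves the window test with no residual degrees of freedom, so it was not run. Recorded depth limits what can be read at positions near its highest values, and Input lay at 4000 reads or more at all positions of the stretch.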
